A study of Arabidopsis thaliana with 33 samples.

Results

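A set of 153 probe sets, of 12772 measured on leaf arrays of Arabidopsis thaliana, read higher in plants grown at elevated CO2 than in plants grown at ambient CO2 in every nitrogen and time condition of the study. A probe set entered when the mean of the elevated arrays exceeded the mean of the ambient arrays by at least 0.5 on the log2 scale (1 log2 unit is a doubling) in each of 4 conditions. In all, 158 probe sets met this threshold, and 5 of them were left out by name. The platform annotation names a single gene for 60 of the 153, several genes for 1, and no gene for 92, which are described here as unlisted. Over all 12772 probe sets it names a single gene for 6898, several genes for 272 and no gene for 5602. Because the CO2 differences chose the members, they are given below as a description without a test. By comparison, 29 probe sets were lowered by at least 0.5 in all 4 conditions.

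The series asks how leaf gene expression responds to CO2 when nitrogen is ample or limiting. Col-0 plants grew in chambers held at 370 ppm CO2 (ambient) or 750 ppm CO2 (elevated), and NH4NO3 in the feed was 6 mM (ample nitrogen) or 0.25 mM (limiting nitrogen). On day 35, at midday or at midnight, the youngest leaves that had fully expanded were cut, which gives 8 groups. The group sizes were 4 ambient and 3 elevated arrays for ample nitrogen at midday, 5 and 5 for ample nitrogen at midnight, and 4 and 4 for limiting nitrogen at each time. No label mentions a mutation or transgene, and none states what a replicate is, whether a plant, a pool of plants or a chamber. The p-values therefore measure only the spread between these samples, and CO2 level and growth chamber cannot be told apart. Each value is a log2 expression level with its array's median at 0, so a shift shared by most genes cannot be seen. The precision of each mean is limited by how few arrays it rests on.

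Elevated CO2 raises photosynthesis and leaf sugar in C3 plants such as Arabidopsis, and nitrogen supply sets how much of that carbon can be built into protein and growth. Leaf cells also carry a surveillance system: receptor kinases and lectins at the cell surface and TIR-domain proteins inside the cell detect microbes or damage, calcium-binding proteins relay the signal, and enzymes of the cell wall, of hormone synthesis and of protein turnover carry out the response. Genes of this system change readily with light, sugar, age and injury. In whole leaves, fewer cells of a type and less RNA per cell cannot be told apart.

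The markers of leaf mesophyll that were measured, RCA, LHCB4.2 and PSAN (3 of 8 listed), stood between the 98.8th and 99.9th percentile of all probe sets by mean level, and their mean CO2 differences ran from -0.19 to -0.12. The trichome marker TRY (1 of 6 listed) stood at the 16.3rd percentile with a mean level of -1.43, and its mean CO2 difference was -0.54, lower at elevated CO2; its part in the results below was not tested. No listed marker of guard cells, epidermis, phloem, xylem, root or floral organs was named by the annotation as the single gene of a probe set. Such markers may be among the 5602 unlisted probe sets of the array. The excess of 3′ over 5′ control signal, a measure of RNA integrity and labelling, lay between 1.46 and 2.35 (log2, mean of 6 pairs) on 32 arrays. Ambient ample midnight replicate 4 stood apart at 4.41, and without that array 149 probe sets met the threshold, of which 143 were among the 153. The mean level of 37 spike-in control probe sets ranged from 0.52 to 1.20 on ambient and from 0.22 to 0.54 on elevated arrays of ample midnight leaves, and from 0.39 to 0.95 and from 0.25 to 0.72 at limiting midnight. At midday the corresponding ranges were 0.75 to 1.14 and 0.70 to 0.80 with ample nitrogen, and 0.76 to 0.88 and 0.57 to 1.11 with limiting nitrogen. Spike-in level therefore moved with CO2 at midnight and with time, and its part in the results below was not tested.

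Across the 4 conditions the median member was 1.99-fold higher at elevated CO2 (a mean log2 difference of 0.99), and members ranged from 0.59 to 4.40. The median difference was 1.06 in ample midday leaves, 0.97 at ample midnight, 0.79 at limiting midday and 1.02 at limiting midnight, while the median over all probe sets lay between -0.05 and -0.02. A difference of at least 1 was reached by 87 members at ample midday, 74 at ample midnight, 35 at limiting midday and 81 at limiting midnight, and by 20 members in all 4. Limiting midday leaves gave the smallest difference for 80 members. Between 4.30% and 5.96% of all probe sets were higher by 0.5 or more in a single condition.

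The arrays of the 2 CO2 levels separated for most members only in ample midday leaves. Smaller groups separate more easily, and ample midday had the fewest arrays and ample midnight the most. The counts are therefore not comparable between conditions. All elevated arrays lay above all ambient arrays for 116 members at ample midday (6.51% of all probe sets did so), 24 at ample midnight (0.877%), 10 at limiting midday (2.66%) and 44 at limiting midnight (3.39%). No member separated in all 4 conditions (0.0% of all probe sets), 11 did in 3 conditions, 40 in 2, 81 in 1 and 21 in none. The rule used the same differences, so these counts only describe how the members were raised. The size of the CO2 difference was also compared between nitrogen supplies. At midday it was smaller under limiting than under ample nitrogen for all but 28 members (median change -0.29, range -2.10 to 0.71). At midnight it was larger under limiting nitrogen for 89 members (median change 0.11, range -1.22 to 1.97). Members rise and fall together from array to array, so these counts do not by themselves show an effect of nitrogen. These changes were not tested, because each CO2 difference in them had to pass the threshold.

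**Figure D1:**
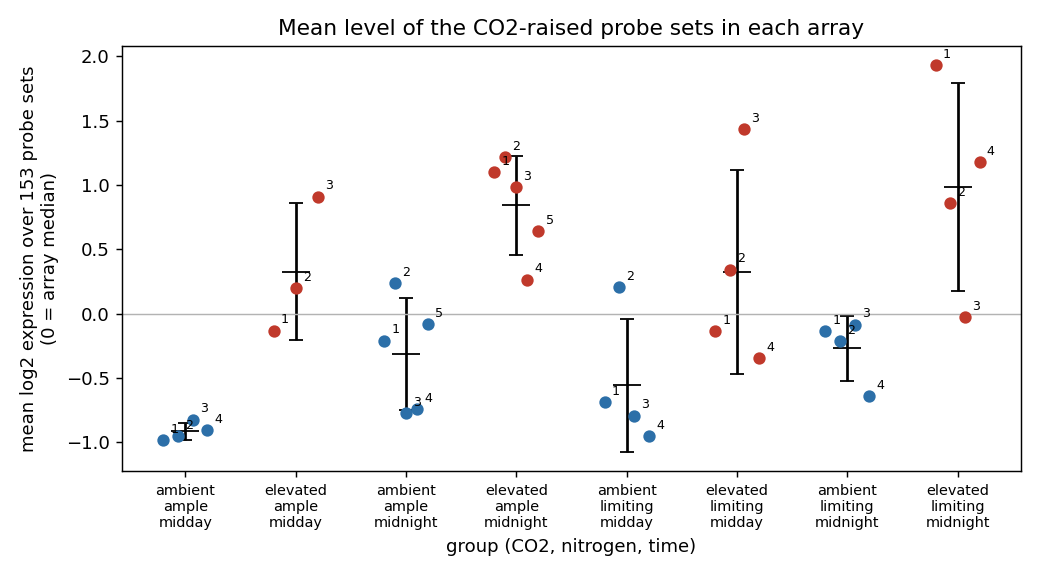
Mean log2 expression over the 153 probe sets in each of 33 arrays (points, numbered by replicate; blue ambient, red elevated CO2), with the group mean and SD as a black bar, for the 8 groups on the horizontal axis. The 4 ambient ample midday arrays sit between -0.98 and -0.82, while the 4 elevated limiting midday arrays run from -0.35 to 1.44.

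The first role group holds receptors and immune sensors. Roles were assigned by family annotation after the members were known. All 8 genes were raised by 0.51 to 2.13 in every condition, with mean differences from 0.65 to 1.71. AT5G18470, a curculin-like mannose-binding lectin family gene, had the largest minimum of all single-gene members, 1.29 at limiting midday. At midday AT5G18470 read -1.91, -2.18, -2.36 and -2.16 on ambient arrays and -0.90, -0.02 and 0.84 on elevated arrays with ample nitrogen. Under limiting nitrogen AT5G18470 read, at the same time, -1.72, -0.52, -1.66 and -2.27 (ambient), and -0.57, -0.85, 1.1 and -0.70 (elevated). Midnight values of AT5G18470 were, with ample nitrogen, -0.02, 1.48, -0.73, -0.26 and 1.03 (ambient) and 2.84, 2.87, 1.83, 1.44 and 2.1 (elevated), and, with limiting nitrogen, 1.20, 0.74, 1.20 and -0.09 (ambient) and 3.21, 2.22, 0.94 and 2.74 (elevated). All 3 elevated arrays lay above the ambient arrays at ample midday, and the groups overlapped in the other 3 conditions. The mean difference was 1.71, a 3.28-fold change, with a pooled within-group SD of 0.77.

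AT3G48080, a homolog of the immune regulator EDS1, was raised by 1.22, 0.54, 0.94 and 0.76 in ample midday, ample midnight, limiting midday and limiting midnight leaves. At midday AT3G48080 read -1.15, -1.60, -1.11 and -1.55 on ambient arrays and -0.30, 0.03 and -0.14 on elevated arrays with ample nitrogen. Under limiting nitrogen AT3G48080 read, at the same time, -1.25, -0.49, -1.10 and -1.74 (ambient), and 0.01, -1.56, 1.3 and -0.59 (elevated). Midnight values of AT3G48080 were, with ample nitrogen, -2.89, -2.48, -0.69, -2.06 and -2.27 (ambient) and -1.34, -1.62, -1.17, -2.01 and -1.54 (elevated), and, with limiting nitrogen, -2.16, -2.39, -2.05 and -3.21 (ambient) and -0.90, -2.11, -2.47 and -1.26 (elevated). The ample midday groups were free of overlap and the others were not. At ample midnight ambient replicate 3 read above every elevated array, and at limiting midday elevated replicate 2 read below 3 of the ambient arrays. The TIR-domain gene AT5G45000 was raised by 0.82 to 1.43 and the protein kinase genes AT1G66880, AT3G09010, AT1G35710 and AT1G16670 had mean differences of 1.05, 0.84, 0.65 and 0.69. AT1G66880 kept its place when any single array was left out. The jacalin-type lectin gene JAL23, described with the time effect, completes the group at a mean of 1.03.

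Calcium- and lipid-binding proteins formed a group of 5, raised by 0.52 to 2.42 in a condition. AT4G00700, a C2-domain protein of the phosphoribosyltransferase family, had the largest mean difference among single genes, 1.81 or 3.51-fold, and its pooled SD of 1.19 was also among the 3 largest. At midday AT4G00700 read -3.02, -2.97, -4.10 and -2.77 on ambient arrays and -3.0, -2.05 and -0.05 on elevated arrays with ample nitrogen. Under limiting nitrogen AT4G00700 read, at the same time, -3.24, -1.37, -3.13 and -2.65 (ambient), and -3.23, -0.88, 0.39 and -2.80 (elevated). Midnight values of AT4G00700 were, with ample nitrogen, -2.53, -0.95, -5.48, -2.23 and -2.67 (ambient) and 0.43, 0.52, -0.62, -1.66 and -0.78 (elevated), and, with limiting nitrogen, -2.33, -1.93, -1.46 and -2.40 (ambient) and 1.87, 0.11, -1.04 and 0.62 (elevated). The groups separated at limiting midnight and overlapped elsewhere. The EF-hand gene AT2G41410 varied less, with a pooled SD of 0.53 and a mean difference of 0.99. At midday AT2G41410 read 1.32, 1.33, 1.27 and 1.42 on ambient arrays and 1.78, 2.30 and 2.65 on elevated arrays with ample nitrogen. Under limiting nitrogen AT2G41410 read, at the same time, 1.14, 1.52, 1.14 and 1.37 (ambient), and 1.94, 2.23, 2.22 and 1.27 (elevated). Midnight values of AT2G41410 were, with ample nitrogen, 2.03, 2.18, 1.09, -0.49 and 1.38 (ambient) and 2.47, 3.09, 2.91, 2.29 and 2.42 (elevated), and, with limiting nitrogen, 2.1, 2.28, 2.30 and 1.90 (ambient) and 3.59, 2.89, 2.6 and 3.58 (elevated). Elevated arrays lay above ambient arrays in every condition except limiting midday, where elevated replicate 4 fell within the ambient range. At ample midnight, ambient replicate 4, the array with the high 3′ to 5′ ratio, read -0.49 against 1.09 to 2.18 on the other ambient arrays. That low value enters both the mean difference and the SD of AT2G41410. Another EF-hand gene, AT3G47480, differed by 0.79 at limiting midday and 2.29 at limiting midnight, and the C2-domain gene AT3G55470 had a mean of 0.83.

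**Figure D2:**
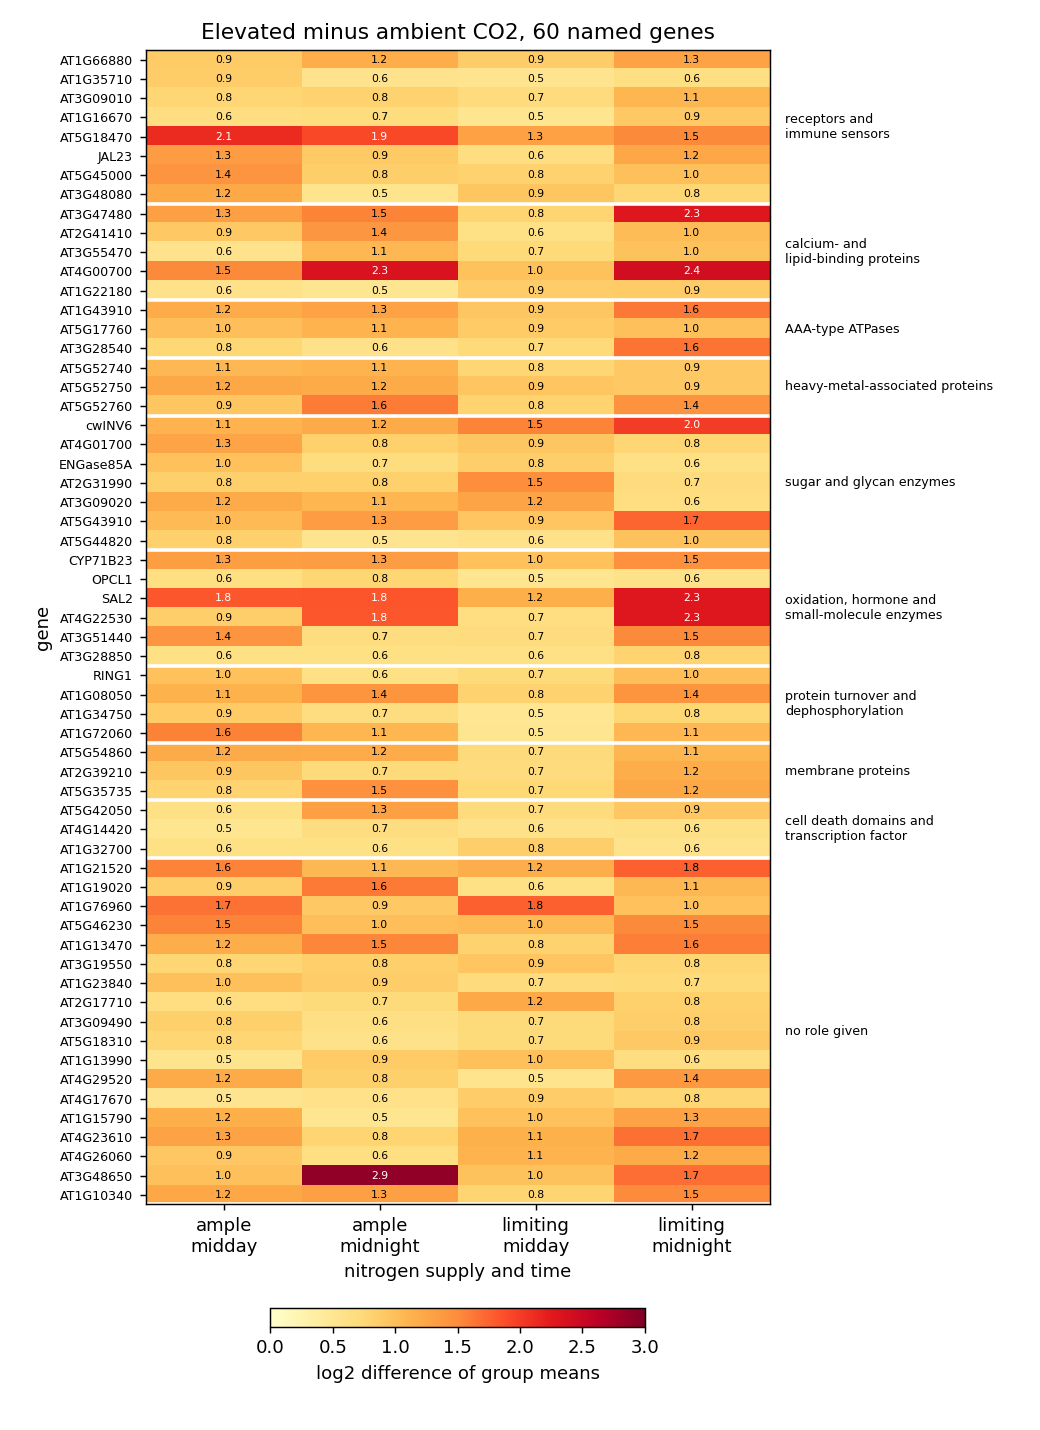
Elevated minus ambient log2 difference of group means (colour and printed value) for the 60 single-gene members (rows, in role groups named at the right) in the 4 nitrogen and time conditions (columns). Every cell is at least 0.5 by the rule, and AT3G48650 holds the largest value, 2.89 at ample midnight.

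Sugar and glycan enzymes numbered 7, with mean differences from 0.73 to 1.47. The largest was that of cwINV6, a member of the cell-wall invertase family that acts as a fructan exohydrolase, raised by 1.11, 1.21, 1.55 and 2.00 in the order given above. At midday cwINV6 read -2.78, -3.24, -3.20 and -3.30 on ambient arrays and -2.19, -2.84 and -1.03 on elevated arrays with ample nitrogen. Under limiting nitrogen cwINV6 read, at the same time, -2.97, -3.40, -3.51 and -3.24 (ambient), and -1.95, -2.01, -0.37 and -2.59 (elevated). Midnight values of cwINV6 were, with ample nitrogen, -2.41, -2.76, -2.57, -2.48 and -1.91 (ambient) and -0.56, -1.62, -0.63, -1.43 and -1.88 (elevated), and, with limiting nitrogen, -2.65, -2.25, -2.72 and -2.86 (ambient) and 0.43, -1.49, -1.57 and 0.13 (elevated). The ambient and elevated arrays separated in 3 conditions, and at ample midday elevated replicate 2 read just below the highest ambient array. It was also among the 10 single genes that stayed past the threshold whichever array was left out. The pfkB carbohydrate kinase family gene AT5G43910 had a mean of 1.27, the chitinase family gene AT4G01700 0.95, the glycosyltransferase gene AT3G09020 1.04, the exostosin family gene AT2G31990 0.96, and the endoglucosaminidase gene ENGase85A 0.78.

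Oxidation, hormone and small-molecule enzymes numbered 6. SAL2, a homolog of the phosphatase SAL1 that breaks down the stress signal phosphonucleotide PAP, was raised 3.42-fold on average, a mean difference of 1.78. At midday SAL2 read -3.02, -2.76, -2.95 and -2.89 on ambient arrays and -1.66, -1.79 and 0.19 on elevated arrays with ample nitrogen. Under limiting nitrogen SAL2 read, at the same time, -2.35, -1.47, -2.44 and -2.43 (ambient), and -2.23, -0.52, 0.65 and -1.95 (elevated). Midnight values of SAL2 were, with ample nitrogen, 0.03, 0.06, -2.28, -2.95 and -0.13 (ambient) and 1.19, 1.28, 1.20, -0.12 and 0.38 (elevated), and, with limiting nitrogen, -1.10, -0.57, -0.35 and -1.06 (ambient) and 2.47, 1.17, 0.18 and 2.25 (elevated). The groups separated at ample midday and at limiting midnight. At limiting midday elevated replicates 1 and 4 lay within the ambient range, and at ample midnight ambient replicates 3 and 4 read far below the other ambient arrays. CYP71B23, a cytochrome P450, had nearly even differences of 1.32, 1.32, 0.97 and 1.46. At midday CYP71B23 read 0.25, -0.13, 0.28 and -0.10 on ambient arrays and 1.09, 1.14 and 1.94 on elevated arrays with ample nitrogen. Under limiting nitrogen CYP71B23 read, at the same time, 0.51, 1.38, 0.07 and -0.41 (ambient), and 0.99, 0.72, 2.93 and 0.80 (elevated). Midnight values of CYP71B23 were, with ample nitrogen, 0.06, 0.57, -0.57, -1.07 and -0.14 (ambient) and 1.81, 1.11, 1.19, 0.58 and 0.77 (elevated), and, with limiting nitrogen, 0.57, -0.05, 0.13 and -1.17 (ambient) and 2.33, 1.03, 0.34 and 1.64 (elevated). Its groups separated at both times under ample nitrogen and overlapped under limiting nitrogen, where elevated midday replicate 3 read 2.93. The group also holds OPCL1, an acyl-CoA ligase of jasmonate synthesis (mean 0.63), the methyltransferase gene AT4G22530 (1.40), the strictosidine synthase-like gene AT3G51440 (1.08) and the glutaredoxin family gene AT3G28850 (0.66).

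Some members are neighbours in the genome. By the gene order of assembly TAIR10.1, AT5G52740, AT5G52750 and AT5G52760, genes for proteins with a heavy-metal-associated domain, follow each other with no other protein-coding gene between them, and so do the kinase gene AT3G09010 and the glycosyltransferase gene AT3G09020. The 3 heavy-metal-associated genes had mean differences of 0.96, 1.07 and 1.19, in the order of the genes. At midday AT5G52750 read -0.02, -0.24, 0.19 and 0.07 on ambient arrays and 0.94, 1.15 and 1.61 on elevated arrays with ample nitrogen. Under limiting nitrogen AT5G52750 read, at the same time, -0.07, 0.87, -0.22 and -1.04 (ambient), and 0.78, 0.44, 2.27 and -0.15 (elevated). Midnight values of AT5G52750 were, with ample nitrogen, -0.31, 1.00, -0.77, -0.21 and 0.74 (ambient) and 1.69, 1.82, 1.05, 0.78 and 1.1 (elevated), and, with limiting nitrogen, 0.90, 0.12, 0.66 and -0.60 (ambient) and 1.68, 1.09, 0.38 and 1.55 (elevated). For AT5G52750 the groups separated at ample midday and overlapped in the other conditions.

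Of the AAA-type ATPase genes, AT1G43910 had a mean difference of 1.25, AT5G17760 0.99 and AT3G28540 0.93. Of the genes of protein turnover and dephosphorylation, AT1G08050, a RING zinc-finger gene, had a mean of 1.19, the protease inhibitor family gene AT1G72060 1.06, RING1, a ubiquitin ligase linked to programmed cell death, 0.83, and the protein phosphatase 2C gene AT1G34750 0.70. RING1 varied less than most members, with a pooled SD of 0.46. At midday RING1 read 1.53, 1.98, 1.84 and 1.85 on ambient arrays and 2.30, 2.51 and 3.53 on elevated arrays with ample nitrogen. Under limiting nitrogen RING1 read, at the same time, 1.62, 2.22, 1.64 and 1.63 (ambient), and 2.00, 2.78, 3.34 and 1.84 (elevated). Midnight values of RING1 were, with ample nitrogen, 3.30, 3.09, 1.87, 2.76 and 3.16 (ambient) and 3.74, 3.72, 3.60, 3.18 and 3.04 (elevated), and, with limiting nitrogen, 2.27, 2.79, 3.10 and 2.80 (ambient) and 3.79, 3.50, 3.38 and 4.30 (elevated). Its groups separated at ample midday and at limiting midnight. Membrane proteins were the major facilitator family genes AT5G54860 (1.04) and AT2G39210 (0.88) and the auxin-responsive family gene AT5G35735 (1.06). The cell death-related domain genes AT5G42050 (0.88) and AT4G14420 (0.59) and the PLATZ factor gene AT1G32700 (0.66) had the lowest group median, 0.66.

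A further 18 single genes had no role that could be given with certainty. Their mean differences ran from 0.69 to 1.63, with AT3G48650, annotated as a pseudogene, at the top. AT1G76960 was raised by 1.65 and 1.76 at midday and by 0.90 and 0.98 at midnight, under ample and limiting nitrogen respectively. At midday AT1G76960 read 0.10, 1.24, -0.64 and -0.34 on ambient arrays and 0.94, 1.24 and 3.05 on elevated arrays with ample nitrogen. Under limiting nitrogen AT1G76960 read, at the same time, 0.90, 1.18, 0.05 and -0.10 (ambient), and 2.72, 2.41, 2.76 and 1.19 (elevated). Midnight values of AT1G76960 were, with ample nitrogen, 0.63, 1.26, -0.11, 1.67 and 1.8 (ambient) and 2.66, 2.93, 1.04, 1.59 and 1.54 (elevated), and, with limiting nitrogen, 2.05, 1.43, 1.74 and 1.60 (ambient) and 2.66, 2.61, 1.79 and 3.68 (elevated). Its groups separated only at limiting midday. AT1G21520 and AT5G46230 had mean differences of 1.39 and 1.28, and AT1G13470, AT4G23610 and AT1G10340 had 1.28, 1.22 and 1.21. The unlisted probe sets had a median mean difference of 1.04, against 0.99 for the single genes, and held the extreme, a probe set raised by 4.94, 4.67, 2.84 and 5.14. At midday that probe set read -2.72, -2.78, -2.13 and -1.71 on ambient arrays and 1.44, 2.07 and 4.30 on elevated arrays with ample nitrogen. Under limiting nitrogen that probe set read, at the same time, -3.36, 1.58, -1.25 and -2.30 (ambient), and -1.41, 2.93, 5.15 and -0.64 (elevated). Midnight values of that probe set were, with ample nitrogen, -4.69, 0.38, -2.49, -4.25 and -1.37 (ambient) and 2.45, 4.18, 0.57, 0.80 and 2.91 (elevated), and, with limiting nitrogen, -2.34, -2.11, -3.16 and -2.42 (ambient) and 4.22, 2.92, -1.50 and 4.87 (elevated). That probe set separated in every condition except limiting midday, and had the largest pooled SD of all members, 1.99.

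**Figure D3:**
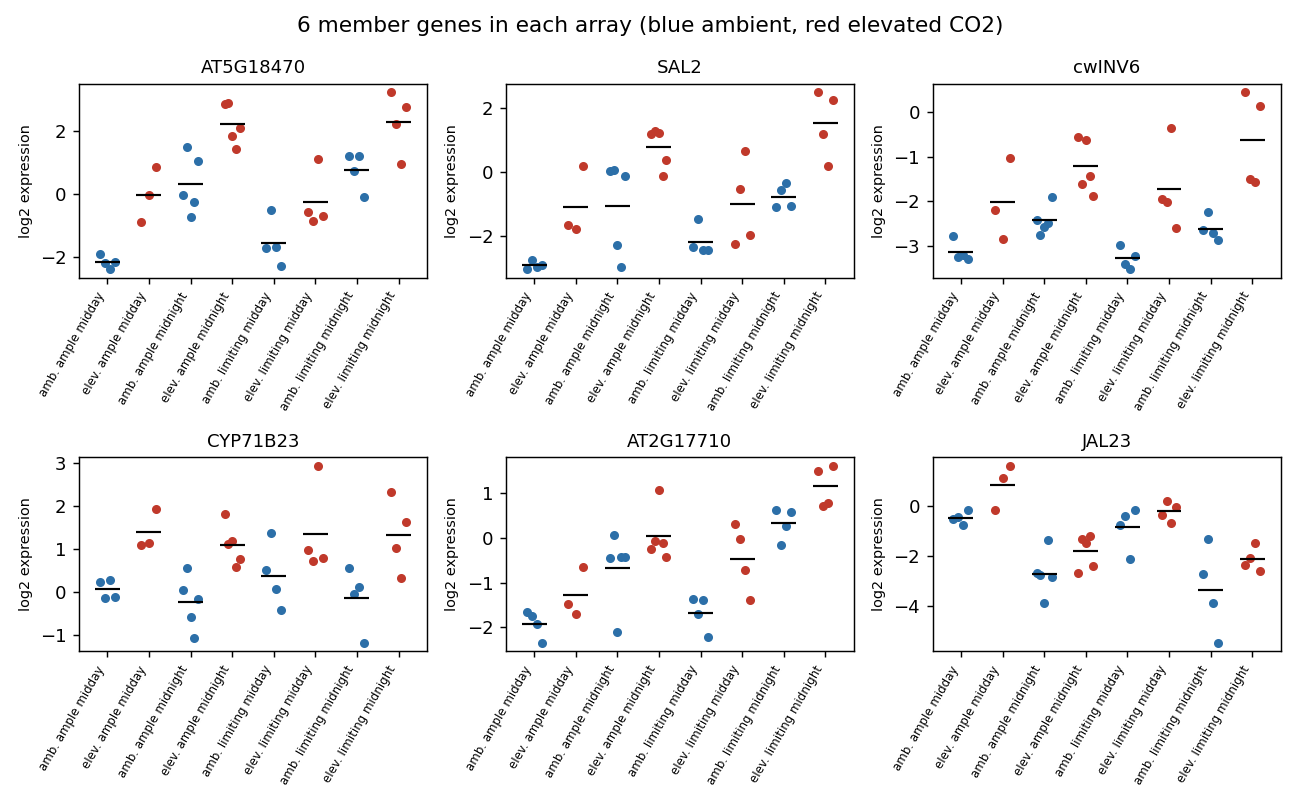
Log2 expression of AT5G18470, SAL2, cwINV6, CYP71B23, AT2G17710 and JAL23 (a panel each) in the 33 arrays (points; blue ambient, red elevated CO2), with a black line at each group mean. At the same CO2 level and nitrogen supply, the group means of AT5G18470 and SAL2 are higher at midnight than at midday, and those of JAL23 lower.

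Of 20 gene lists on immunity, detoxification, senescence, calcium, respiration and sugar, 15 had a measured gene, and members appeared in 2. Measured here means that the annotation names the gene alone for a probe set. CYP71B23 was 1 of 12 measured genes on the cytochrome P450 list and cwINV6 was 1 of 6 measured genes of sugar transport and invertases. The P450 list was drawn by the start of gene names and held only CYP71 and CYP78 names. It is therefore not the whole family, and the gene named CYP71 on it may not be a cytochrome P450. None of 10 autophagy, 20 UDP-glycosyltransferase, 7 glutathione transferase, 6 calcium signalling, 3 WRKY or 3 jasmonate list genes was a member. Over all single genes 60 of 6852 were members, so lists this short cannot show whether a family holds fewer members than that share. The 92 unlisted members could not appear in any list. Among list genes outside the members, limma called the mean CO2 effect higher for 2 and lower for 4 UDP-glycosyltransferases, higher for 3 and lower for 1 calcium signalling gene, and higher for 2 and lower for 0 autophagy genes. Over all probe sets that fit called 8.46% higher, 12.9% lower and 21.3% in either direction. The highest of the calcium signalling genes was the glutamate receptor-like channel GLR2.7, at 0.62 (adjusted p = 0.0012). GLR2.7 passed the threshold only at limiting midnight, at 1.07. It differed by 0.489 at ample midday, 0.437 at ample midnight and 0.495 at limiting midday.

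The threshold passed through a continuum. Just inside lay AT1G34750, AT1G16670 and AT1G15790, with smallest differences of 0.50, 0.51 and 0.51. Just outside lay AT3G28950 at 0.4996, AT5G10695 at 0.4984 and AT5G55450 at 0.4876. A threshold of 0.4 would admit 256 probe sets and a threshold of 0.75 would admit 52.

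Nitrogen supply moved few members past the test. The nitrogen effect, limiting minus ample averaged over both CO2 levels, is not part of the rule and was tested with limma over all 12772 probe sets. Averaged over time, 2 members were called higher under limiting nitrogen and 0 lower, a share of 1.31% against 0.579% called higher, 0.83% lower and 1.41% in either direction over all probe sets. At midnight the same 2 members were called, with 0.525% called higher, 0.853% lower and 1.38% in either direction over all probe sets. Neither midnight call was kept in a fit with replicate number as a block. In the main fit 13 members, or 8.5%, had an unadjusted p under 0.05 at midnight, against 13.4% of all probe sets. At midday limma called 0 members, with 0.0861% of all probe sets called higher, 0.141% lower and 0.227% in either direction. There 5 members, or 3.27%, had an unadjusted p under 0.05, against 6.81% of all probe sets, and the smallest adjusted p was 0.382. The nitrogen by time interaction had 0 calls among members by limma (0.0705% of all probe sets called higher, 0.0313% lower and 0.102% in either direction), with 4 members, or 2.61%, at an unadjusted p under 0.05 against 6.22% of all probe sets, and a smallest adjusted p of 0.597.

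Below the threshold the members leaned towards limiting nitrogen. At midday 121 of 153 (79.1%) read higher under limiting nitrogen, with a median of 0.20, against 50.1% and a median of 0.00 over all probe sets. At midnight 96 (62.7%) did, with a median of 0.07, against 45.7% and -0.02. Averaged over time 19 members had an unadjusted p under 0.05, or 12.4% against 13.6% of all probe sets. The members rise and fall together from array to array, as described below, so these directions are not independent of each other. The elevated limiting midday arrays also enter both the midday lean and the CO2 difference of the rule. Averaged over members, replicate 3 of that group stood 1.11 above its group mean, and ambient limiting midday replicate 2 stood 0.76 above its own. On the ample side, elevated midday replicate 3 stood 0.58 above its own. How far the lean rests on these arrays was not tested.

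AT2G17710, a gene with no role given, was the single-gene member called for nitrogen. At midday AT2G17710 read -1.65, -1.75, -1.93 and -2.34 on ambient arrays and -1.48, -1.69 and -0.64 on elevated arrays with ample nitrogen. Under limiting nitrogen AT2G17710 read, at the same time, -1.37, -1.70, -1.39 and -2.22 (ambient), and 0.31, -0.03, -0.73 and -1.40 (elevated). Midnight values of AT2G17710 were, with ample nitrogen, -0.44, 0.06, -2.09, -0.42 and -0.43 (ambient) and -0.25, -0.07, 1.07, -0.11 and -0.43 (elevated), and, with limiting nitrogen, 0.63, -0.15, 0.26 and 0.57 (ambient) and 1.5, 0.71, 0.79 and 1.60 (elevated). At midnight the limiting arrays of AT2G17710 lay above all ample arrays of the same CO2 level, except for limiting replicate 2 at ambient CO2 and limiting replicates 2 and 3 at elevated CO2. Averaged over time the gene was higher under limiting nitrogen by 0.79 ± 0.19 (SE, adjusted p = 0.022), and at midnight by 1.05 (adjusted p = 0.025). The averaged call was lost without elevated ample midday replicate 1 or replicate 2 (adjusted p = 0.057 and 0.063). The midnight call was lost in a fit of the midnight arrays alone (adjusted p = 0.058) and with replicate number as a block (adjusted p = 0.057). It was also lost without replicate 1 or 4 of ambient limiting, replicate 1 or 4 of elevated limiting, or replicate 5 of elevated ample midnight leaves (adjusted p from 0.053 to 0.074). An unlisted probe set, described after its values were seen, had the smallest pooled SD of all members, 0.31. At midday that probe set read -0.58, -0.18, -0.78 and -0.61 on ambient arrays and -0.28, -0.45 and 0.74 on elevated arrays with ample nitrogen. Under limiting nitrogen that probe set read, at the same time, -0.29, -0.15, -0.82 and -0.52 (ambient), and 1.12, 0.60, 0.35 and 0.09 (elevated). Midnight values of that probe set were, with ample nitrogen, -0.40, -0.85, -0.49, -0.38 and -0.44 (ambient) and 0.06, 0.26, 0.19, 0.00 and -0.19 (elevated), and, with limiting nitrogen, 0.07, 0.00, 0.03 and 0.01 (ambient) and 1.14, 0.56, 0.50 and 0.89 (elevated). At midnight its limiting arrays lay above its ample arrays at each CO2 level. It was higher under limiting nitrogen by 0.47 ± 0.11 (SE, adjusted p = 0.016) averaged over time, a call that was lost without elevated ample midday replicate 1 (adjusted p = 0.052) or replicate 2 (0.053). At midnight it was higher by 0.62 (adjusted p = 0.017), a call that was lost with replicate number as a block (adjusted p = 0.071).

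Members differed by time of day about as often as other probe sets, but mostly in favour of midnight. Limma called 102 members in either direction, against 64.5% of all probe sets. It called 86 members lower at midday (56.2%, against 31.1% of all probe sets) and 16 higher (10.5%, against 33.4%), and 51 were not called. The median member was 0.60 lower at midday, whereas the median over all probe sets was 0.02. Of the single-gene members 31 were lower and 8 higher at midday, and of the unlisted members 54 were lower and 8 higher. All 4 called calcium- and lipid-binding genes were lower at midday, as were all 3 called genes of protein turnover and dephosphorylation, and receptors and immune sensors split into 3 higher and 2 lower. Time and any processing done separately for midday and midnight arrays cannot be told apart, and the spike-in level also differed between the times.

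AT1G19020 and AT5G18470 showed the largest excess at midnight. At midday AT1G19020 read -1.84, -1.44, -1.52 and -2.48 on ambient arrays and -1.98, -0.59 and -0.35 on elevated arrays with ample nitrogen. Under limiting nitrogen AT1G19020 read, at the same time, -1.89, -0.42, -1.68 and -1.48 (ambient), and -1.03, -0.70, 0.51 and -1.76 (elevated). Midnight values of AT1G19020 were, with ample nitrogen, 0.46, 1.79, -1.34, 0.38 and 1.13 (ambient) and 2.88, 2.26, 2.48, 0.73 and 2.14 (elevated), and, with limiting nitrogen, 1.43, 0.56, 0.99 and -0.34 (ambient) and 3.38, 1.96, 0.06 and 1.48 (elevated). The midnight arrays of AT1G19020 lay above the midday arrays of the same CO2 level and nitrogen supply, except that elevated limiting midnight replicate 3 read below midday replicate 3. The gene was lower at midday by 5.53-fold, a difference of -2.47 ± 0.30 (SE, adjusted p = 2.0e-08), and AT5G18470 by 5.21-fold, -2.38 ± 0.25 (adjusted p = 9.3e-10). SAL2 followed at -1.91, AT2G17710 at -1.54, AT5G35735 at -1.42 and AT5G52760 at -1.33, all called. AT1G22180, a Sec14-like lipid-binding gene, had the smallest pooled SD among single genes, 0.33. At midday AT1G22180 read -1.63, -1.33, -1.54 and -1.54 on ambient arrays and -1.19, -1.03 and -0.53 on elevated arrays with ample nitrogen. Under limiting nitrogen AT1G22180 read, at the same time, -1.13, -0.81, -1.69 and -1.31 (ambient), and -0.16, -0.45, -0.08 and -0.78 (elevated). Midnight values of AT1G22180 were, with ample nitrogen, -0.01, 0.25, -0.76, 0.08 and 0.03 (ambient) and 0.37, 0.59, 0.74, 0.14 and 0.35 (elevated), and, with limiting nitrogen, -0.15, -0.21, 0.01 and 0.13 (ambient) and 1.47, 0.59, 0.29 and 0.98 (elevated). Every midnight array of AT1G22180 lay above every midday array of the same CO2 level and nitrogen supply, and its difference was -1.29 ± 0.11 (SE, adjusted p = 1.8e-11).

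JAL23 had the largest excess at midday. At midday JAL23 read -0.50, -0.42, -0.75 and -0.13 on ambient arrays and -0.13, 1.16 and 1.63 on elevated arrays with ample nitrogen. Under limiting nitrogen JAL23 read, at the same time, -0.74, -0.39, -2.11 and -0.15 (ambient), and -0.34, 0.23, -0.67 and -0.02 (elevated). Midnight values of JAL23 were, with ample nitrogen, -2.69, -2.76, -3.92, -1.34 and -2.83 (ambient) and -2.67, -1.30, -1.49, -1.19 and -2.39 (elevated), and, with limiting nitrogen, -2.74, -1.33, -3.91 and -5.49 (ambient) and -2.38, -2.07, -1.48 and -2.62 (elevated). Its midday arrays lay above its midnight arrays of the same treatment, except that ambient limiting midday replicate 3 read below midnight replicate 2, and its difference was 2.35 ± 0.29 (SE, adjusted p = 2.3e-08), 5.10-fold. The ATPase gene AT3G28540 followed at 1.60, the nucleotide-diphospho-sugar transferase gene AT5G44820 at 1.28, AT3G48080 at 1.23, OPCL1 at 0.96 and the kinase gene AT1G16670 at 0.68, all called.

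**Figure D4:**
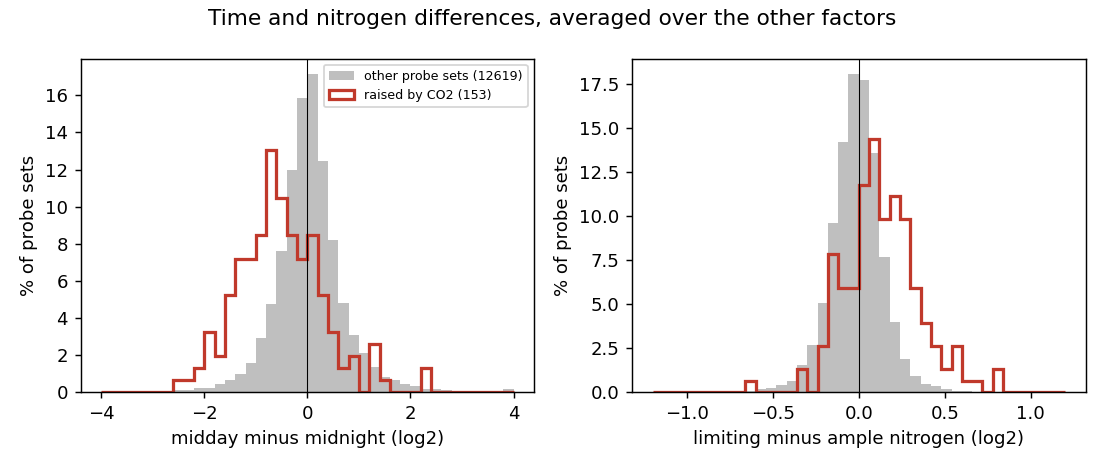
Share of probe sets (vertical axis, percent) by midday minus midnight difference (left) and limiting minus ample nitrogen difference (right), both in log2, for the 153 members (red outline) and the other 12619 probe sets (grey). Values beyond the axis are counted in the outermost bar. The members lean to midnight on the left, with a median of -0.60, and slightly to limiting nitrogen on the right, with a median of 0.12.

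Members varied strongly between replicate arrays. The median pooled within-group SD was 0.65 (range 0.31 to 1.99), against 0.28 for the other 12619 probe sets, and all 153 exceeded the median of other probe sets within 0.25 of their own level. The median member SD was lowest in ambient ample midday leaves, at 0.30, and highest in elevated limiting leaves, at 0.88 at midday and 0.78 at midnight. Other probe sets had medians of 0.18, 0.24 and 0.25 in those groups. The largest pooled SDs among single genes were those of AT3G48650 (1.36), AT4G00700 (1.19) and SAL2 (0.94), and the smallest those of AT1G22180 (0.33), AT5G18310 (0.39) and AT4G14420 (0.39). The rule used the same arrays, so these SDs are a description.

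The spread was largely shared between members. After each group mean was taken away, pairs of members had a mean Pearson correlation of 0.54 over the 33 arrays, and 96.6% of the 11628 pairs were positive. The same mean was 0.01 for the other probe sets, 0.08 for the 256 of them with an SD as large as the members', and 0.42 for the 29 probe sets lowered in all 4 conditions. Positive and negative pairs cancel in this mean. The mean absolute correlation was 0.55 for members, 0.23 for the other probe sets, 0.28 for those 256 and 0.43 for those 29. These are descriptions over arrays that share their hybridisations, and members were chosen from the same arrays. Single arrays stood high or low for the whole set: elevated limiting midday replicate 3 was above its group mean for 143 members, ambient limiting midday replicate 2 for 150, elevated ample midday replicate 3 for 144 and elevated limiting midnight replicate 1 for 149, whereas elevated limiting midnight replicate 3 was above it for only 2.

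Averaged over members, the arrays of ambient ample midday leaves stood at -0.91 ± 0.07 (SD, n = 4), and those of elevated ample midday leaves at 0.33 ± 0.53 (n = 3). At ample midnight the ambient and elevated means were -0.31 ± 0.44 and 0.84 ± 0.39 (n = 5 each). Under limiting nitrogen they were -0.56 ± 0.52 and 0.32 ± 0.80 at midday, and -0.27 ± 0.25 and 0.99 ± 0.81 at midnight (n = 4 each). The difference at ample midday was 1.24 with all arrays, 0.95 without elevated replicate 3 and 1.47 without elevated replicate 1. The difference at limiting midday was 0.88 with all arrays, 0.51 without elevated replicate 3 and 1.13 without ambient replicate 2. With an array left out, the ranges of the midday differences under ample and limiting nitrogen thus overlapped. At limiting midnight it was 1.26, with 0.94 without elevated replicate 1 and 1.59 without elevated replicate 3 as the lowest and highest values with an array left out.

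Membership rested on single arrays in the same way. Without elevated limiting midday replicate 3, only 67 of the 153 probe sets stayed at or above 0.5 in all 4 conditions. Without elevated limiting midnight replicate 1 there were 119, without ambient limiting midday replicate 4 there were 125, and without elevated ample midday replicate 3 there were 128. In total 27 members stayed whichever of the 33 arrays was left out, of which 10 were single genes: AT5G18470, SAL2, cwINV6, AT1G21520, AT5G46230, AT5G43910, AT1G76960, AT1G66880, AT4G23610 and AT2G41410.

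**Figure D5:**
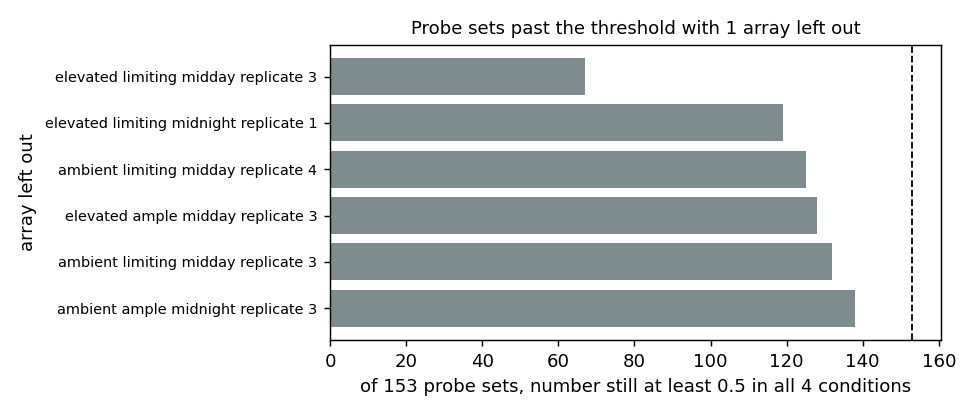
Number of the 153 probe sets (horizontal axis) that remained at least 0.5 higher at elevated CO2 in all 4 conditions when the array named on the vertical axis was left out, for the 6 arrays with the lowest numbers. The dashed line marks 153, and the shortest bar is 67.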

How the data were processed

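Total RNA was labelled with a 3′ IVT kit and hybridised to Affymetrix arrays, per the labels' protocols. The authors deposited 1 table of log2 expression values in which each array's median is 0. How probes were summarised and background-corrected, by which software, and which probe sets were filtered out is not given in the sources used here. The 54 control probe sets were left out of all tests. Names came from the platform annotation, updated through assembly TAIR10.1.

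The members, role groups and gene lists were chosen with earlier results of these data known. Group means of all 8 groups (33 arrays) were fitted together in limma 3.58.1 (R 4.3.3), and contrasts were called at a Benjamini-Hochberg adjusted p under 0.05 over 12772 probe sets. The fit was tested on simulated data. Single-gene members were named by a rule: the 12 with the largest smallest CO2 difference, the 6 largest called in each direction for nitrogen and for time, list members, the 3 nearest the threshold on each side, and the 3 with the largest and smallest SD. Other members were named after their values were seen. Alternatives were quantile normalization, a filter on the dimmest 30%, a replicate block, trended robust eBayes, array weights, fits within a time, other thresholds, group medians, and each array left out. Same-numbered arrays had a median residual correlation of 0.05 at midday and 0.01 at midnight, against -0.01 and 0.01 for differently numbered arrays. A correlation above 0.1 was reached by 8 of 21 and 9 of 25 same-numbered pairs, against 13 of 63 and 20 of 96 other pairs. These values do not settle whether replicate numbers pair the samples.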

Additional observations from a re-analysis of the deposited data

Results flagged for a closer look

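In 28 series of values (27 named genes and the mean over members) the highest or lowest array of each group of 4 or 5 was compared with its nearest neighbour, and 14 of 196 groups held an array far from the others by Dixon's 95% criterion. Chance gives about 1 in 20 when groups are independent. These groups are not, because the genes share arrays and rise and fall together. Some of the genes were also named for a large or small SD. Elevated limiting midday replicate 3 was the highest array of its group for AT5G18470 at 1.1 (the others -0.85 to -0.57), CYP71B23 at 2.93 (0.72 to 0.99) and AT1G34750 at 1.76 (0.41 to 0.64). Ambient limiting midday replicate 2 was the highest for SAL2 at -1.47 (-2.44 to -2.35) and AT1G21520 at -0.03 (-2.29 to -1.91). Elevated ample midnight replicate 4 was the lowest for AT5G46230 at -1.72 (-0.26 to 0.04) and AT5G44820 at -1.81 (-0.60 to -0.14).

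At ample midnight AT2G17710 had an ambient replicate 3 at -2.09 (-0.44 to 0.06) and an elevated replicate 3 at 1.07 (-0.43 to -0.07). Ambient ample midnight replicate 3 was also the lowest for AT1G22180 at -0.76 (-0.01 to 0.25), replicate 1 the highest for OPCL1 at 1.24 (-0.31 to 0.10), and replicate 4, the array with the high 3′ to 5′ ratio, the lowest for AT1G34750 at -1.39 (0.15 to 0.54). AT1G15790 had an ambient ample midday replicate 2 at -3.48 (-2.08 to -1.80), and its ambient limiting midnight replicate 2 at -1.53 stood above 3 arrays that all read -1.95.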

How the results depend on the processing

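The number of probe sets past the rule was 153, and became 256 at a threshold of 0.4, 52 at 0.75, and 68 to 191 with an array left out (lowest without elevated limiting midday replicate 3). Group medians gave 110, of which 92 were shared, and quantile normalization gave 165, which held all 153. Nitrogen calls were the least settled. At midday they went from 0 to 7 with array weights and stayed 0 to 0 with an array left out. At midnight they went from 2 to 0 with the replicate block, 1 with only the midnight arrays, and 1 to 3 with an array left out. Averaged over time they went from 2 to 7 with array weights, 3 with the replicate block, and 0 to 4 with an array left out (0 without elevated ample midday replicate 1 or 2, and 4 without replicate 3). The cause was not tested. Time calls were 102 in the fit as reported, 105 with the replicate block, and 98 to 107 with an array left out. The nitrogen by time interaction gave 0 calls in every alternative, the replicate block included. Over all probe sets, the 2725 calls for the mean CO2 effect became 2441 with the replicate block and 1871 to 3113 with an array left out. With the replicate block the midnight adjusted p was 0.057 for AT2G17710 and 0.071 for the unlisted probe set called for nitrogen. Of 1553 values of single named genes or probe sets under an alternative, 1541 were counted as unchanged and 0 as reversed. The other 12 were losses of a nitrogen call, at midnight or averaged over time, by AT2G17710 or that probe set. For limma calls, unchanged meant the same side of the adjusted p threshold. For CO2 differences the count did not require a value to stay at or above 0.5. By that measure only 27 of the 153 members, 10 of them single genes, stayed whichever array was left out. With 3 to 5 arrays per group, differences near the threshold of 0.5 are smaller than the members' median SD of 0.65. Signal over background is not known, because the deposited values carry no detection call.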

Other observations

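Single-gene members that could be placed on a chromosome numbered 59, with 18 on chromosome 1, 5 on chromosome 2, 11 on chromosome 3, 8 on chromosome 4 and 17 on chromosome 5. By name 8 members are probe sets that can match more than 1 transcript. The WRKY factor WRKY47, outside the members, read 0.60 higher at elevated CO2 averaged over conditions (limma adjusted p = 0.0207). Its difference was 0.60 at ample midday, 0.21 at ample midnight, 0.27 at limiting midday and 1.34 at limiting midnight.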
